A study of Homo sapiens with 8 samples.

Results

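Histone genes encode the proteins around which DNA is wound, and they fall into 2 classes that are transcribed differently. The symbols of the deposited gene table were searched for those beginning with HIST1H to HIST4H, H2AF, H3F3 or H1F, and 91 of 26475 genes matched. Of these, 73 were clustered genes (HIST symbols) and 18 were variant genes (H1F, H2AF and H3F3 symbols). The variant symbols included H1FX-AS1, an antisense RNA, and H3F3AP4, a processed pseudogene, which are not histone genes in the strict sense. The 8 RNA libraries were made from BT474, a human line established from a breast tumour in which ERBB2 is amplified, and the labels name no drug treatment. The genotype label was NPY1R high for 4 libraries and NPY1R low for the other 4, where NPY1R encodes the neuropeptide Y receptor Y1. How high and low cells were obtained is not given in the sources used here. The series title speaks of persister cells that tolerate lapatinib, a drug that blocks the kinases EGFR and ERBB2. Nothing in the labels says whether the 4 libraries of a group came from separate cultures, so p-values measure only the spread between these libraries.

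Clustered genes are made almost only while DNA is copied, to supply the core histones H2A, H2B, H3 and H4 and the linker histone H1 for new chromatin. They are classically described as lacking introns, and most of their mRNAs end in a conserved stem-loop bound by SLBP in place of a poly(A) tail. Variant genes are expressed throughout the cell cycle, usually carry introns and poly(A) tails, and encode histones that are placed at particular sites, such as H2A.Z at promoters, macroH2A in silent chromatin and H3.3 in active genes. The kit named in the labels' protocols did not make clear whether RNA was selected by its poly(A) tail.

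Sequence features of the 2 classes were read from the reference, and 4 members that differ in the elements known from histone promoters are shown. RefSeq windows from 250 bases before to 50 bases after the transcript start (GRCh38.p14) were matched for 65 clustered and 14 variant protein-coding genes. They were searched on both strands for CCAAT, the box bound by NF-Y, and for TATAAA, which places the start site in many promoters. They were also searched for the octamer ATTTGCAT, which POU2F1 binds, and for AAACACA, an element known from H1 promoters. CCAAT was found in 55 of the 65 clustered windows and 12 of the 14 variant windows, against 34.6% of all 35116 windows. TATAAA was found in 44 clustered and 4 variant windows, against 11.5% of all. The octamer was found in 26 clustered windows, of which 11 were among 16 H2A genes and 14 among 18 H2B genes, and in 1 variant window, against 1.77% of all. AAACACA was present in all 6 windows of clustered H1 genes and in 5.64% of all windows. The H4 genes had CCAAT in 3 of 13 windows and the octamer in 0. A match describes these letters only and is no evidence of a bound factor. The 250 bases before the start of 4 genes follow, 5′ to 3′ on the strand of the gene, with matches to these motifs or their reverse complements in capitals. They are HIST1H2AC at chr6:26123922-26124171 (plus strand), HIST1H1C at chr6:26056471-26056720 (minus), H2AFZ at chr4:99950276-99950525 (minus) and H2AFV at chr7:44848088-44848337 (minus).
HIST1H2AC: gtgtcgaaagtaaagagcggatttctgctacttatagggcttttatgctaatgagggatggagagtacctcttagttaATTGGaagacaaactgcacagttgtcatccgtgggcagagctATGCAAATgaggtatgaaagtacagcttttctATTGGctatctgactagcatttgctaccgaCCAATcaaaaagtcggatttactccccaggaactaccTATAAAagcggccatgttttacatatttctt
HIST1H1C: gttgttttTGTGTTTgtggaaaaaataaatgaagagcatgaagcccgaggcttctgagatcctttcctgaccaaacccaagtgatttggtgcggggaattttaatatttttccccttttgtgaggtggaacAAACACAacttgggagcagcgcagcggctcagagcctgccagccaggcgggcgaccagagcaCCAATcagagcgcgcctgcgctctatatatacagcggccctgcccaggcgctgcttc
H2AFZ: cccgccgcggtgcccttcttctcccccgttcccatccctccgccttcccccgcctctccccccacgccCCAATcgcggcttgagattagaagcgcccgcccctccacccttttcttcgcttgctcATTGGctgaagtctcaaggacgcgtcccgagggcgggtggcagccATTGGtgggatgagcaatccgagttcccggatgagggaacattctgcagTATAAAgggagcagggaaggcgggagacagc
H2AFV: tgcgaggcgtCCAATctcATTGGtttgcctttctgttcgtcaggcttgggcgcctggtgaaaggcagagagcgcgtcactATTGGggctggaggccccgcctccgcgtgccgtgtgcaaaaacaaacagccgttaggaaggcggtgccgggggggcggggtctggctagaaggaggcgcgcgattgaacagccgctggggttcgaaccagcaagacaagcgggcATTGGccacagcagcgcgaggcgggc

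The HIST1H2AC window held a TATAAA that began 31 bases before the start, an octamer read on the reverse strand and 3 CCAAT boxes. It lies between HIST1H2AC and HIST1H2BC, whose starts are 246 bases apart and point away from each other. In HIST1H1C the CCAAT began 57 bases and the nearer AAACACA 119 bases before the start. The genes for H2A.Z, a variant of H2A, both carried CCAAT boxes and no octamer, and H2AFZ alone of them had a TATAAA, also 31 bases before its start.

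The stem-loop of histone mRNA was searched for in GENCODE 29 transcripts by the conserved letters of its core. It was found in 31 of 70 clustered protein-coding genes, in 1 of 16 variant protein-coding genes and in 52 of all 19669 protein-coding genes (0.264%). Many clustered models end at or close to the stop codon, so its absence says only that the letters are not in the model. The variant gene was H2AFX, which is known to give both a stem-loop and a polyadenylated mRNA. Stem-loops of 4 genes are shown to compare H2AFX with clustered genes of 3 families, with the searched core in capitals.
HIST1H2AE: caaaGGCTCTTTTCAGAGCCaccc
HIST1H2BC: caaaGGCTCTTTTAAGAGCCaccc
HIST1H4H: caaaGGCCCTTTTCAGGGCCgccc
H2AFX: caaaGGCCCTTTTAAGGGCCacca

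The core most often found among histone genes was that printed for HIST1H2AE, found in 17 genes. The core of H2AFX was found in no other histone gene.

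The libraries held 18025648 to 30609791 estimated counts each, of which histone genes took 0.598% to 0.933%. Levels are given as CPM, a gene's count relative to the scaled total of its library. NPY1R itself had a mean of 856.5 ± 170.4 CPM over NPY1R high against 95.5 ± 5.66 over NPY1R low (SD, n = 4), so the labels matched the gene they name. A filter on low counts kept 14008 genes, among them 62 clustered and 11 variant genes. The other 18 histone genes included 8 listed at 0 in every library. Among the rest were H3F3C, with 16.34 counts over all libraries, HIST1H4I, with 8, and the oocyte linker histone H1FOO, with 1. All 9 luminal epithelial markers were expressed, of which 3 rose (PGR by 1.71, GATA3 by 0.60 and ESR1 by 0.59 on the log2 scale) and 2 fell (EPCAM at -0.30 and FOXA1 at -0.23) in NPY1R high. Over all tested genes, 5.78% rose and 7.81% fell. The part of the luminal markers in the results for histone genes was not tested. KRT14, COL1A2, DCN, PDGFRB and CD3E, which mark basal cells, fibroblasts and T cells, were listed at 0. Other markers passed the filter, namely TP63 (basal, 1273 counts over all libraries), COL1A1 (fibroblast, 3038), LYZ (immune, 144) and VWF (endothelial, 2856). Summed over each list, basal markers reached 4.48 to 8.81 CPM, fibroblast markers 10.4 to 17.5, immune markers 0.550 to 1.19 and endothelial markers 9.22 to 18.2, with overlapping groups throughout. In bulk RNA, fewer cells in a phase and less RNA per cell cannot be told apart.

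No tested clustered gene passed the test between NPY1R high and low. By edgeR's quasi-likelihood test, 0 of 62 had a Benjamini-Hochberg adjusted p under 0.05, where 13.6% of all tested genes did, and 0 had an unadjusted p under 0.05. The groups did not overlap for 0 of 62 clustered genes, against 20.2% of all tested genes. Estimates were below 0 for 56 of 62, against 55.9% of all, and their median log2 fold change was -0.17 (range -0.57 to 0.16), against -0.03 over all genes. Their median standard error was 0.25, and 0.11 over all genes, so shifts of the size estimated here could not be told from 0. HIST1H3J had the lowest estimate (-0.57, SE 0.36) and the testis linker histone HIST1H1T the highest (0.16, SE 0.68), both with large errors at under 4 CPM. The plot of log2 fold changes shows the clustered genes just below 0 with long bars and the called H2A.Z genes with short ones.

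**Figure D1:**
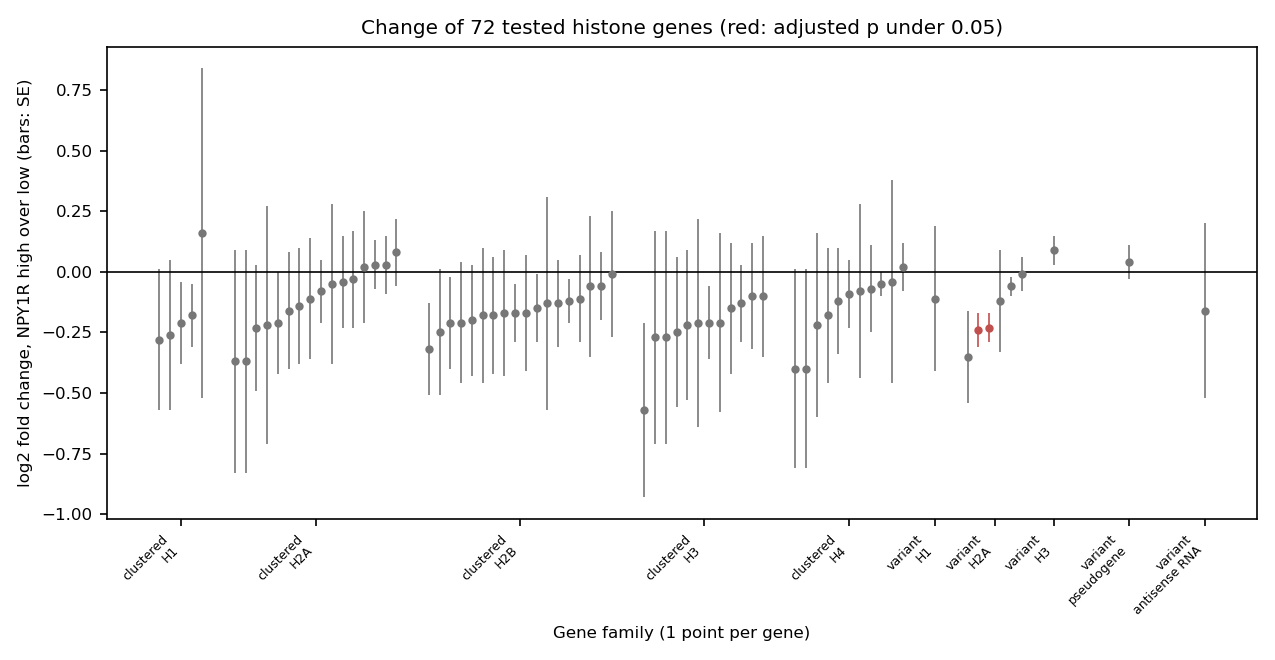
Log2 fold change (NPY1R high over low) of 72 tested histone genes, 1 point per gene with its standard error as a bar, ordered within families along the horizontal axis. The 2 red points (adjusted p under 0.05) are H2AFZ and H2AFV; the clustered genes lie between -0.57 and 0.16.

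The families of clustered genes had similar medians. H1 linker genes had a median log2 fold change of -0.21 over 5 genes and H3 genes of -0.21 over 12. The 18 H2B genes had a median of -0.17, and all 18 estimates were below 0. The medians of H2A (16 genes) and H4 (11 genes) were both -0.09. By position, the 47 tested genes of the HIST1 clusters on chromosome 6 had a median of -0.15 and the 12 of the HIST2 cluster on chromosome 1 of -0.24. HIST4H4, a lone H4 gene on chromosome 12, had an estimate of -0.08. The differences between these medians were not tested.

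The linker histone genes showed how wide the spread was. HIST1H1C, which encodes H1.2, had 462.4, 395.7, 321.0 and 364.3 CPM in NPY1R high replicates 1 to 4 and 478.5, 564.0, 428.6 and 309.0 CPM in NPY1R low replicates 1 to 4. The highest and the lowest library were both NPY1R low, and the groups overlapped. The log2 fold change was -0.21 (SE 0.17, adjusted p 0.514 by edgeR's quasi-likelihood test). HIST1H1B, the gene of H1.5, had 309.0, 252.5, 173.8 and 214.9 CPM in NPY1R high, against 329.1, 418.7, 262.1 and 142.9 in NPY1R low. It had the same order of libraries in NPY1R low, from replicate 2 down to replicate 4, and an estimate of -0.28 (SE 0.29, adjusted p 0.616 by the same edgeR test). HIST1H1D (H1.3) at -0.18 (SE 0.13) and HIST1H1E (H1.4) at -0.26 (SE 0.31) likewise did not pass.

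The core histone genes with the highest mean CPM gave smaller estimates than these linker genes. HIST1H4C, an H4 gene, had 180.9, 180.2, 167.8 and 172.1 CPM in NPY1R high, against 181.4, 195.5, 175.6 and 173.7 in NPY1R low. These 8 values lay close together, and the log2 fold change was -0.05 (SE 0.05, adjusted p 0.629 by edgeR's quasi-likelihood test). HIST1H4E was at 0.02 (SE 0.10) and HIST1H4H at -0.09 (SE 0.14). HIST1H2BD, an H2B gene, had 225.6, 200.0, 182.6 and 187.2 CPM in NPY1R high, against 226.9, 245.6, 207.4 and 186.6 in NPY1R low. Its groups overlapped, and its estimate was -0.12 (SE 0.09).

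Other core histone genes spread more widely over the libraries. HIST2H4A and HIST2H4B, H4 genes of the HIST2 cluster with equal counts, each had 63.2, 47.8, 30.8 and 38.8 CPM in NPY1R high, against 76.5, 94.4, 48.6 and 19.1 in NPY1R low. The NPY1R low libraries lay on both sides of the NPY1R high range, and the log2 fold change was -0.40 (SE 0.41, adjusted p 0.61 by edgeR's quasi-likelihood test). HIST4H4 had 56.2, 40.7, 34.1 and 43.6 CPM in NPY1R high, against 55.4, 72.4, 40.1 and 15.9 in NPY1R low, again with NPY1R low at both extremes. HIST1H3B, an H3 gene, was at -0.13 (SE 0.16), with 135.7 to 194.5 CPM in NPY1R high, against 130.2 to 212.7 in NPY1R low. HIST1H2AE, an H2A gene, was at -0.23 (SE 0.26), with 97.0 to 151.6 CPM in NPY1R high, against 72.9 to 204.5 in NPY1R low. For each of these genes the NPY1R low range enclosed that of NPY1R high. HIST2H2AB had the estimate furthest above 0 among H2A genes, 0.08 (SE 0.14), with 25.8 to 35.9 CPM in NPY1R high, against 22.7 to 33.03 in NPY1R low.

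Neighbouring H2A and H2B genes that share a promoter region formed 11 pairs with starts 194 to 248 bases apart, of which 10 had both genes tested. For HIST1H2AJ and HIST1H2BM both estimates were -0.21, for HIST1H2AK and HIST1H2BN they were -0.05 and -0.06, and for HIST1H2AC and HIST1H2BC 0.02 and -0.13. No gene of the 10 pairs was called.

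**Figure D2:**
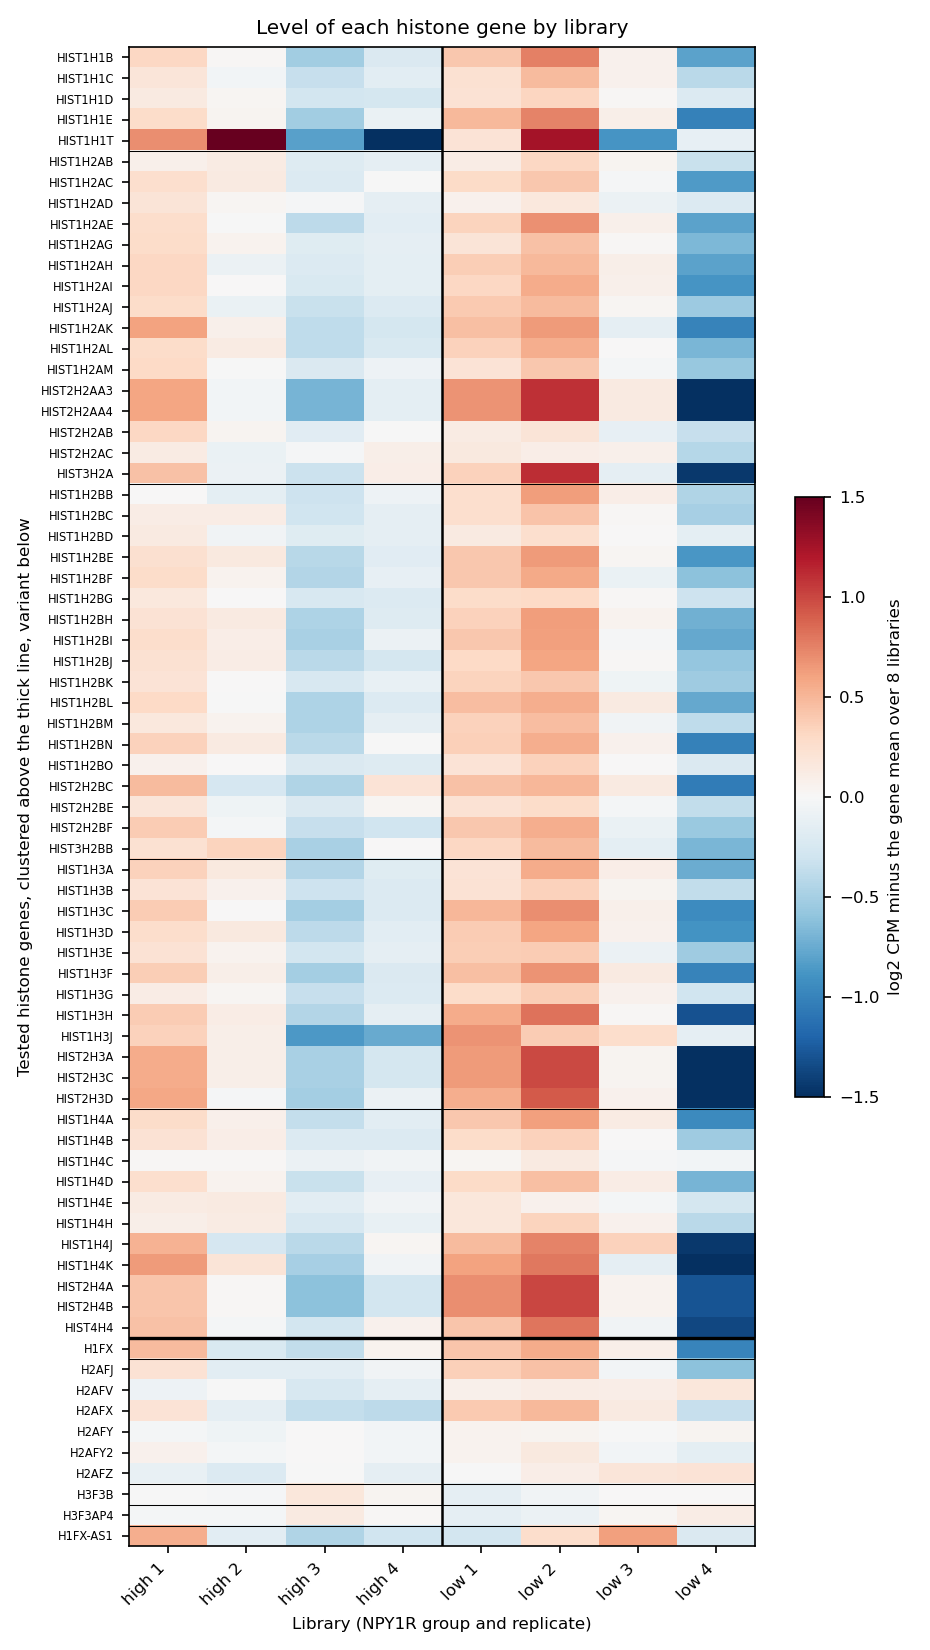
Level of each of 72 tested histone genes (rows, clustered above the thick line and variant below) in each library (columns), as log2 CPM minus the gene's mean over the 8 libraries. Most clustered rows are red in NPY1R low replicate 2 and blue in NPY1R low replicate 4, while most variant rows stay pale.

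Clustered genes were high or low together from library to library, also among libraries of the same group. NPY1R low replicate 4 was the lowest library for 55 of the 62 genes and NPY1R low replicate 2 the highest for 56. The median deviation of the clustered genes from their own mean was 0.27, 0.04, -0.37 and -0.15 in NPY1R high replicates 1 to 4 and 0.35, 0.55, 0.03 and -0.70 in NPY1R low replicates 1 to 4, on the log2 scale. For variant genes the same medians lay between -0.14 and 0.11. The standard deviation of log2 CPM within a group had a median of 0.45 over clustered genes, 0.10 over variant genes and 0.16 over all tested genes. Summed CPM of the clustered genes was 5837, 5100, 3985 and 4486 in NPY1R high and 6150, 6989, 5088 and 3379 in NPY1R low, or 4852 ± 799 against 5402 ± 1557 (SD, n = 4). Both extremes were again NPY1R low libraries. The summed CPM of variant genes ran only from 2344 to 2619 over all 8.

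**Figure D3:**
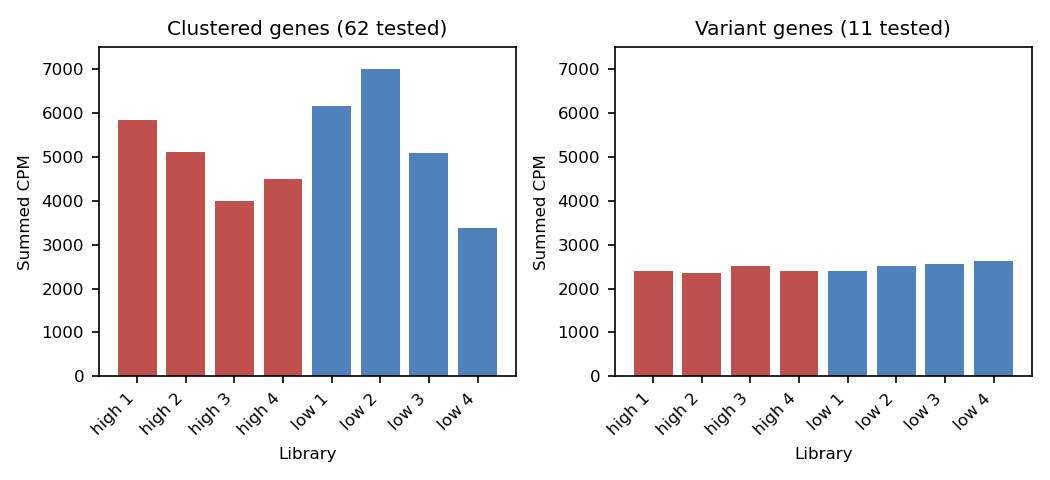
Summed CPM of the 62 tested clustered genes (left) and the 11 tested variant genes (right) in each library, with NPY1R high in red and NPY1R low in blue. The clustered sum runs from 3379 to 6989, both in NPY1R low, and the variant sum from 2344 to 2619.

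The clustered genes did not share this spread evenly. HIST1H4C had the lowest within-group SD (0.07), followed by HIST1H2AD and HIST1H2BD (both 0.15) and HIST1H4E (0.16). HIST1H1T had the highest, 1.28, at a mean of 1.43 CPM. Next came HIST2H2AA3 and its copy HIST2H2AA4 (0.92) and HIST2H3A and its copy HIST2H3C (0.86). HIST2H2AA3 had 56.8, 36.7, 23.2 and 33.8 CPM in NPY1R high, against 59.96, 80.7, 41.2 and 12.3 in NPY1R low, a 6.55-fold range. The median SD was 0.79 for the HIST2 cluster and 0.42 for the HIST1 clusters. With copies of equal counts taken once, the HIST2 median SD was 0.59 over 9 genes and their median log2 fold change -0.18.

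Several measures varied over the same libraries. Transcript GC content had a median of 57.4% in clustered, 54.4% in variant and 49.7% in all tested genes with a value. Across 13179 genes, Spearman's rho between a gene's deviation in a library and its GC content was 0.40, 0.00, -0.42 and 0.11 in NPY1R high replicates 1 to 4 and 0.45, 0.43, -0.03 and -0.56 in NPY1R low replicates 1 to 4. The GC content of the 62 clustered genes ran from 41.55% (HIST1H2BH) to 67.4% (HIST2H3D). Within these genes rho was 0.37, -0.18, -0.12 and -0.03 in NPY1R high and 0.26, 0.19, 0.20 and -0.31 in NPY1R low. Over all genes, rho was lowest in NPY1R low replicate 4, where the clustered median was also lowest. It was highest in NPY1R low replicate 1 (0.45), and the clustered median was highest in NPY1R low replicate 2 (rho 0.43). With each library's GC trend removed, the median deviation of the clustered genes was 0.43 in NPY1R low replicate 2 and -0.50 in replicate 4. Across the clustered genes, the within-group SD had a rho of 0.25 with GC content. Summed CPM of 19 DNA synthesis genes was 3001.7 to 3161.2 in replicates 1 and 2 of both groups and 2421 to 2708.4 in replicates 3 and 4 of both. The part of GC content and of DNA synthesis in the spread of histone genes was not tested.

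**Figure D4:**
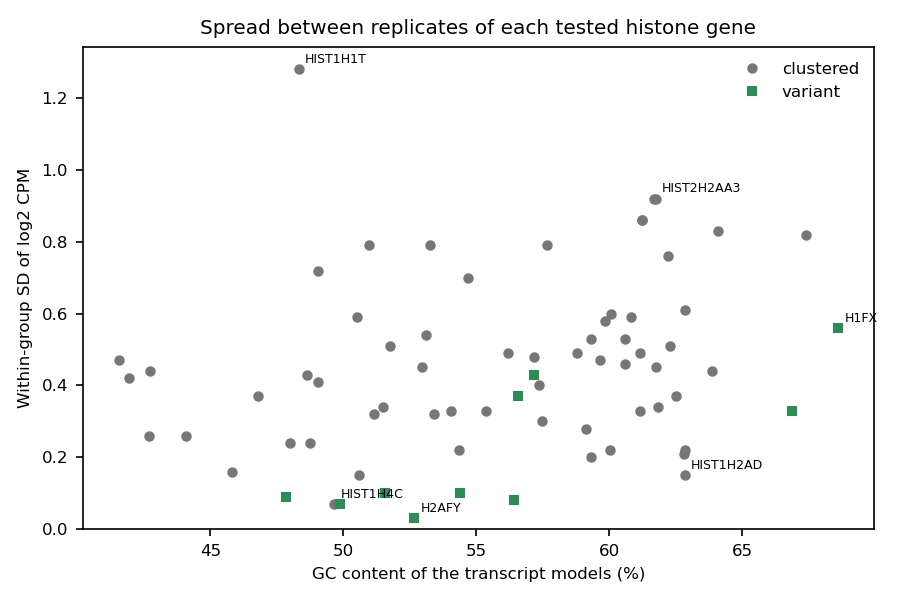
Within-group standard deviation of log2 CPM (vertical axis) of 72 tested histone genes against the GC content of its transcript models in percent (horizontal axis), clustered genes as grey circles and variant genes as green squares. Clustered genes span 0.07 (HIST1H4C) to 1.28 (HIST1H1T) and variant genes 0.03 (H2AFY) to 0.56 (H1FX).

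The median of the clustered genes depended on single libraries. Without replicate 4 of NPY1R low, the median log2 fold change was -0.31, 30 of 62 genes had an unadjusted p under 0.05, and 1 was called lower by edgeR's quasi-likelihood test. That gene was HIST1H2BB, an H2B gene, at -0.44 (SE 0.12, adjusted p 0.0325), in a comparison where 7.51% of all genes were called lower. The share of all genes with an unadjusted p under 0.05 in that comparison is not given here. Without replicate 2 of NPY1R low the median was 0.01, without replicate 1 it was -0.05, and without replicate 3 it was -0.18. Leaving out NPY1R high libraries gave -0.28 without replicate 1, -0.19 without replicate 2, -0.03 without replicate 3 and -0.08 without replicate 4. With all libraries it was -0.17. NPY1R high differed from low by a median of -0.28 within replicates 1 and 2, with 59 of 62 clustered genes below 0. Within replicates 3 and 4 the median difference was 0.09, with 17 below 0. Over all 14008 tested genes, 7998 were below 0 within replicates 1 and 2, and 6977 within replicates 3 and 4. No label names these sets of replicates as batches.

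Among the variant genes, 3 of 11 fell in NPY1R high and 0 rose, by edgeR's quasi-likelihood test with Benjamini-Hochberg adjusted p under 0.05. Over all tested genes, 7.81% were called lower and 5.78% higher. Among those that fell were H2AFZ and H2AFV, which encode the near-identical proteins H2A.Z.1 and H2A.Z.2. Their estimates were small, from -0.24 to -0.23 on the log2 scale, with standard errors of 0.06 to 0.07. The groups did not overlap for 2 of 11, both lower, where 11.4% of all tested genes did not overlap in that direction and 8.77% in the other.

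H2AFZ had 366.0, 341.6, 394.3 and 358.9 CPM in NPY1R high, against 392.8, 424.3, 447.8 and 459.8 in NPY1R low. The groups touched only where NPY1R high replicate 3 passed NPY1R low replicate 1. The means were 365.2 ± 21.9 and 431.2 ± 29.5 CPM (SD, n = 4), a log2 fold change of -0.24 (SE 0.07, adjusted p 0.037 by edgeR's quasi-likelihood test). H2AFV had 305.0, 321.5, 274.3 and 295.5 CPM in NPY1R high, against 341.8, 347.7, 347.2 and 362.5 in NPY1R low. All NPY1R low libraries were above all NPY1R high ones. The log2 fold change was -0.23 (SE 0.06, adjusted p 0.025 by the same edgeR test). Together the H2A.Z genes came to 664.3 ± 7.38 CPM (SD, n = 4) for NPY1R high, against 781.0 ± 37.1 for NPY1R low, without overlap.

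The calls of the H2A.Z genes depended on the scaling and on single libraries. The main scaling had NPY1R low replicate 4 as its TMM reference (the library against which the others are scaled). With any of the other 7 libraries as the reference, 0 of the 2 were called, at adjusted p from 0.0551 to 0.0999 by edgeR's quasi-likelihood test. When libraries were left out in turn, H2AFV was called in 1 of 8 cases (without NPY1R high replicate 2) and H2AFZ in 0 of 8. A replicate block, which pairs libraries by number, left all 3 calls among variant genes in place, with 7.34% of all genes called lower. With a GC offset, which removes each library's trend with GC content and was added after seeing the data, both genes were called, at adjusted p 0.00481 for H2AFZ and 0.00665 for H2AFV in the same edgeR test, with 12.4% of all genes called lower. Over 33 alternatives, the call of H2AFV held in 13 and that of H2AFZ in 10. Estimates for both H2A.Z genes stayed below 0 over the same 33, from -0.27 to -0.16. Within replicates 1 and 2, the differences were -0.21 for H2AFZ and -0.14 for H2AFV, and within replicates 3 and 4 they were -0.27 and -0.32.

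**Figure D5:**
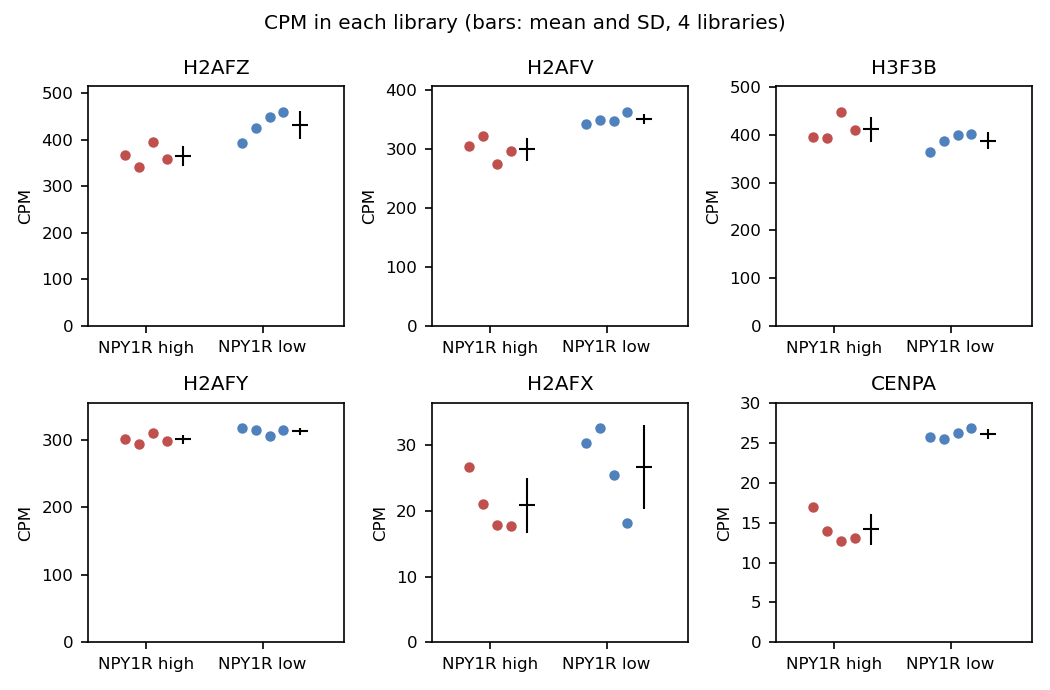
CPM in each library (points, NPY1R high in red, NPY1R low in blue, replicates 1 to 4 from left to right) with the group mean and SD as a black cross, for 5 variant histone genes and CENPA. H2AFV and CENPA show no overlap between the groups, H2AFZ overlaps by 1 library, and H2AFX spans 17.6 to 32.5 CPM with wide overlap.

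H2AFX, whose product is phosphorylated at DNA breaks, had the lowest estimate of the variant genes but did not pass. It had 26.7, 21.0, 17.9 and 17.6 CPM in NPY1R high, against 30.3, 32.5, 25.5 and 18.1 in NPY1R low. NPY1R low replicates 3 and 4 lay within the range of NPY1R high. The log2 fold change was -0.35 (SE 0.19, adjusted p 0.288 by edgeR's quasi-likelihood test). With the GC offset it was -0.33 (SE 0.10, adjusted p 0.0338 in the same edgeR test). Without NPY1R low replicate 4, its adjusted p by edgeR's quasi-likelihood test was 0.0475 without the offset and 0.0684 with it.

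Of the variant genes, H2AFX, H2AFJ, H1FX and H2AFY2 were, like most clustered genes, highest in NPY1R low replicate 2. Replicate 4 of NPY1R low was the lowest of the 8 libraries for H2AFJ, H1FX and H2AFY2, though not for H2AFX. H1FX, a linker variant with the highest GC content of the tested histone genes (68.6%), had 27.3, 16.6, 15.1 and 20.1 CPM in NPY1R high, against 26.1, 28.8, 20.8 and 9.78 in NPY1R low. Its estimate was -0.11 (SE 0.30) and its within-group SD 0.56. H2AFJ, an H2A variant gene on chromosome 12, was at -0.12 (SE 0.21, SD 0.37). H1FX-AS1, which overlaps H1FX on the opposite strand, was at -0.16 (SE 0.36). It was counted at under 1 CPM in each library, and the strand setting of the counting is not given in the sources used here.

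The macroH2A and H3.3 genes varied little between libraries and did not pass the test. H2AFY, the gene of macroH2A1, had 293.7 to 309.1 CPM in NPY1R high, against 305.2 to 316.9 in NPY1R low, a log2 fold change of -0.06 (SE 0.04). H2AFY2, the gene of macroH2A2, was at -0.01 (SE 0.07). H3F3B, which encodes H3.3, had 395.6, 392.2, 448.1 and 408.8 CPM in NPY1R high, against 363.0, 386.3, 398.8 and 401.5 in NPY1R low. The groups overlapped, and the log2 fold change was 0.09 (SE 0.06, adjusted p 0.418 by edgeR's quasi-likelihood test).

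H3F3A, the other H3.3 gene, was listed at 0 in 7 of 8 libraries and at 42.64 counts in NPY1R low replicate 2. H3F3AP4, its processed pseudogene on chromosome 2, was assigned 14774 to 24204 counts per library. The GENCODE 29 model of H3F3AP4 is 411 bases long, and all 411 are identical to a stretch of an H3F3A transcript. Reads from that stretch can hardly be told apart. H3F3A transcripts are longer, at a median of 1198 bases, and the annotation used for counting is not given in the sources used here. The sum of both was 814.2 ± 43.4 CPM (SD, n = 4) for NPY1R high, against 789.8 ± 63.4 for NPY1R low, with overlapping groups. H3F3AP4 alone had a log2 fold change of 0.04 (SE 0.07). The same uncertainty holds for copies with equal counts in every library, which were HIST2H2AA3 and HIST2H2AA4, HIST2H3A and HIST2H3C, HIST2H4A and HIST2H4B, and H2AFB1 and H2AFB3. Other clustered genes of a family are also alike in sequence, and how the estimated counts divide them is uncertain.

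Of 18 tested genes that make and process histone mRNA, 0 rose and 1 fell, where 5.78% of all tested genes rose and 7.81% fell. The list had a median log2 fold change of -0.03. POU2F1, which encodes the octamer-binding factor Oct-1, had 44.0 to 52.7 CPM in NPY1R high, against 63.7 to 79.3 in NPY1R low. The groups did not overlap, and the change was -0.50 (SE 0.09, adjusted p 0.00427 by edgeR's quasi-likelihood test). SLBP, the stem-loop binding protein, was at -0.14 (SE 0.06, adjusted p 0.194 by the same test), and ZNF473, a zinc finger protein of the 3′ processing complex, at -0.19 (SE 0.08).

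Of 25 genes for histone chaperones, deposition and exchange, 0 rose and 3 fell, beside the same 5.78% and 7.81% of all tested genes, with a median of -0.07. CENPA, the centromeric H3 variant, lies outside the symbol search and had 17.0, 14.0, 12.7 and 13.1 CPM in NPY1R high, against 25.8, 25.4, 26.3 and 26.8 in NPY1R low. The groups were far apart, with a log2 fold change of -0.88 (SE 0.10, adjusted p 3.21e-04 by edgeR's quasi-likelihood test). HJURP, its chaperone, fell by 0.65 on the log2 scale (SE 0.15, adjusted p 0.0185 by the same edgeR test). SSRP1, a subunit of the FACT complex, fell by 0.23 (SE 0.05, adjusted p 0.0166, same edgeR test). Over the 33 alternatives, the call of SSRP1 held in 22 and that of HJURP in 29. ANP32E, a chaperone that removes H2A.Z, was at -0.23 (SE 0.12) and did not pass, and VPS72, a subunit of the complex that inserts H2A.Z, was at 0.07 (SE 0.07).

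Of 19 DNA synthesis genes, 0 rose and 1 fell, with a median of -0.07, where 7.81% of all tested genes fell. RRM1, a subunit of ribonucleotide reductase, fell by 0.31 on the log2 scale (SE 0.06, adjusted p 0.00839 by edgeR's quasi-likelihood test), and RRM2, its partner, was at -0.30 (SE 0.13, adjusted p 0.16). All 12 mitosis genes fell, with a median of -0.88. CCNB1 (cyclin B1) fell by 1.10 (SE 0.08). Their summed CPM was 1093.1 to 1376.6 in NPY1R high and 2059.9 to 2190.1 in NPY1R low. The part of these genes in the falls of the H2A.Z genes was not tested.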

How the data were processed

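RNA was measured in 4 NPY1R high and 4 NPY1R low libraries of BT474 cells. The authors deposited expected counts per gene symbol, and STAR 2.5.2, RSEM 1.3.0 and the build hg38 are named in the submitters' processing notes. The gene annotation and strand setting are not given in the sources used here. Between 7.97% and 8.76% of a library's values were not whole. Each expected count was rounded to the nearest whole number for the tests. Genes were filtered by edgeR's filterByExpr (minimum count 10), scaled by TMM and tested with edgeR's quasi-likelihood test, without covariates, with Benjamini-Hochberg adjustment over all 14008 tested genes and a threshold of 0.05. Log2 CPM for spread and deviations used a prior count of 2. The software was edgeR 4.0.16 under R 4.3.3, with DESeq2 1.42.0 and limma 3.58.1 for alternatives. The test was checked on simulated counts.

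GC content, gene models and stem-loops came from GENCODE 29 (GRCh38) and promoter windows from RefSeq (GRCh38.p14). GC content was known for 94.08% of tested genes, and the GC offset removed a spline (5 degrees of freedom) of each library's log2 CPM on it. Counts come without molecular identifiers, so they are not independent molecules.

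The members and lists were chosen with earlier results of these data known. Named genes were NPY1R, all tested variant genes, clustered genes past the threshold (at most 15), the 8 clustered genes with the highest mean CPM, and at most 4 genes of each list with the smallest adjusted p. 1 member is not reported here by name. Any other gene was named after its values were seen. Replicate numbers are shared between the groups, but no label states a pairing, so the main test did not treat the libraries as paired. Deviations of same-numbered libraries correlated at 0.339, 0.157, 0.0907 and 0.0178, and a replicate block was run as an alternative. What same-numbered libraries share was not tested. The alternatives were other scalings, TMM references, filters and tools, a replicate block, each library left out, summed near-identical copies, a stricter threshold and the GC offset.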

Additional observations from a re-analysis of the deposited data

How the results depend on the processing

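Over 33 alternatives, 29 gave no call among the clustered genes and 33 gave no variant gene called higher. The count of 3 variant genes called lower became 1 with median-of-ratios size factors (H2AFV). It became 0 with library totals, upper-quartile factors, each of the 7 other TMM references, no filter, a filter of 1 CPM in 4 libraries or of 10 counts in every library, and an adjusted p under 0.01. Leaving out 1 library without an offset gave 0 to 1. With the GC offset it was 4, H2AFX included, also with the replicate block or the replicate term, and 3 without NPY1R low replicate 4. More of all genes were called lower in these fits too, at 12.4%, 14.1%, 17.7% and 11.7% in that order, against 7.81% in the main test. With the replicate block it stayed at 3, clustered genes stayed at 0 called, and 1028 genes were called lower in all (7.34%). DESeq2 called 2 (H2AFV among them, with 7.77% of all genes called lower) and limma-voom 3 (with 7.70%). The cause of the lost calls was not tested.

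Clustered genes called lower numbered 0 to 1 when 1 library was left out (HIST1H2BB without NPY1R low replicate 4, with or without the GC offset). They numbered 1 with the GC offset and replicate block (HIST1H1D, where 14.1% of all genes were called lower) and 2 with the offset and a term for replicates 1 and 2 against 3 and 4 (HIST1H1D and HIST1H2AJ, where 17.7% were). The clustered median ranged from -0.31 to 0.01 and the variant median from -0.24 to -0.02 over left-out libraries.

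Some estimates without a call changed sign. Many of the clustered genes did so without NPY1R low replicate 2, where their median was 0.01, against -0.17 in the main test. Among them, HIST3H2A was at 0.31, HIST4H4 at 0.23 and HIST1H4K at 0.24. H2AFY2 was at 0.02 with median-of-ratios factors, TMM references high 1 to 4 and low 3, DESeq2 and each GC offset with all libraries, at 0.03 with library totals, TMM references low 1 and low 2 and each filter, and at 0.05 with upper-quartile factors. HIST1H4C was at 0.00 with upper-quartile factors. HIST1H4E was at -0.02 with the GC offset, at -0.01 with the offset and either the replicate block or the replicate term, and at -0.11 with the offset without NPY1R low replicate 4. Over left-out libraries, the estimates ran from -0.02 to 0.11 for HIST1H4E, -0.03 to 0.04 for H2AFY2, -0.32 to 0.07 for H1FX, -0.50 to 0.04 for H1FX-AS1, -0.26 to 0.02 for H2AFJ, -0.18 to 0.01 for HIST1H4H, -0.13 to 0.37 for LYZ and -0.14 to 0.14 for TP63.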
